A study of Mus musculus with 12 samples.

Results

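The genes that make cholesterol and fatty acids were followed in intestinal stem cells (ISCs) of mice after 1 exposure to restraint stress or to corticosterone. The set held 31 of the 47729 genes in the count table, taken by their symbols. It comprised 7 enzymes that lead from acetyl-CoA units through mevalonate to squalene, 10 enzymes that turn squalene into cholesterol, 6 genes that sense or carry sterols, and 8 genes of fatty acid synthesis and desaturation.

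All mice carried the Lgr5-EGFP-IRES-CreERT2 allele, in which EGFP and a tamoxifen-inducible Cre are expressed from the Lgr5 locus, so that ISCs can be sorted as Lgr5-EGFPhi cells from small intestinal crypts; the allele is known to be active in only some crypts. There were 4 groups of 3 libraries from mice of 8 to 10 weeks, of either sex, with the sex behind each library not given. Ctrl mice were not restrained, stress mice were restrained for 3 h, vehicle mice received an intraperitoneal injection of the solvent, and CORT mice an injection of corticosterone at 5 mg per kg in that solvent, a cyclodextrin solution. Ctrl mice of the restraint protocol went without food and water for the same time, and this is not stated for injected mice, so an effect of the injection and one of food cannot be told apart between vehicle and Ctrl. The stress libraries 1+2 and 4+5+6 were read as pools of animals from their names, and the animals behind each library are not otherwise listed, so p-values measure the spread between these libraries.

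Cells build cholesterol from acetyl-CoA through mevalonate, the isoprenoid farnesyl diphosphate and squalene, and build fatty acids from the same acetyl-CoA through malonyl-CoA. Both branches are switched on by the membrane-bound transcription factors SREBP1 and SREBP2 (genes Srebf1 and Srebf2), which SCAP escorts from the endoplasmic reticulum to the Golgi when sterols are low and which the INSIG proteins hold back when sterols are plentiful. Dividing crypt cells need both products for new membrane, while glucocorticoids are known as regulators of lipid metabolism in liver, fat and gut.

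Promoter windows are shown for the genes on which the results turn and whose start is in the RefSeq table, together with Hmgcs1, the member whose window matched the sterol regulatory element searched. RefSeq (GRCm38.p6, the assembly behind mm10) gave 250 bases before to 50 bases after the start for 25 of the 31 genes. The sterol regulatory element TCACNCCAC, a site to which SREBPs bind, was found on either strand in 1 of the 25 windows (4.0%) and in 1.44% of the windows of all 27025 genes. The CCAAT box (CCAAT), which binds the SREBP partner NF-Y, was found in 22 of 25 (88.0%) against 41.1% of all genes, and the Sp1 box (GGGCGG) in 20 of 25 (80.0%) against 38.2%. The E-box CACGTG was present in 5 of 25 (20.0%) against 8.09%, and the half-site AGAACA of the glucocorticoid receptor in 7 of 25 (28.0%) against 21.3%. These matches are descriptions of letters in a fixed window and were not tested as sites. The stretches below lie at chr13:119690206-119690350 on the plus strand (Hmgcs1), chr13:8885537-8885566 on the plus strand (Idi1), chr5:4104747-4104866 on the minus strand (Cyp51), chr11:120824548-120824667 on the minus strand (Fasn) and chr5:114165389-114165508 on the plus strand (Acacb). The Idi1 stretch lies in an exon of the gene model used for counting, and the other 4 overlap no protein-coding exon. The Acacb stretch precedes the RefSeq start, which lies inside the longer gene model. Capitals mark a sterol regulatory element, CCAAT box or Sp1 box on either strand, and in Fasn the run of 8 capitals is a CCAAT box overlapping its own reverse complement.
Hmgcs1: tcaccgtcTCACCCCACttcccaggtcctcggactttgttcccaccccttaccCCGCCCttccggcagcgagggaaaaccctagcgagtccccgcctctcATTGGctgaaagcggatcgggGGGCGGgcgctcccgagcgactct
Idi1: CCGCCCtagccttgcctccagctgATTGGc
Cyp51: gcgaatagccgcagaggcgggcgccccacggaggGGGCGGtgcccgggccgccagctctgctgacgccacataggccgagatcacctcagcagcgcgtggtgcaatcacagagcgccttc
Fasn: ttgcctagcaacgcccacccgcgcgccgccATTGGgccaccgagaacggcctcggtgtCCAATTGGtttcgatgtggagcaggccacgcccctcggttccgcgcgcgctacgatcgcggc
Acacb: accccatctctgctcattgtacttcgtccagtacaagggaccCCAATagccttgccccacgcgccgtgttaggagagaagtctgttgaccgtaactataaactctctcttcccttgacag

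FPKM, which corrects for gene length and library size, is used to compare genes with one another, and CPM, a count scaled to library size by TMM over the 12 libraries, to compare 1 gene between libraries. The estimated counts summed to 16152289 to 16943362 in the Ctrl libraries, 15934907 to 17135770 in stress, 16465961 to 31280267 in vehicle and 29426183 to 69533214 in CORT, so that the CORT libraries were the deepest and vehicle 3 and 5 lay within the Ctrl range. As a check of the cell type, ISC markers (Axin2, Ascl2, Lgr5, Olfm4, Slc12a2, Smoc2) reached medians of 434 to 607 CPM over the 12 libraries. Their sums ran from 10678 to 13938 CPM. Markers of blood cells summed to at most 6.61 CPM, and those of stromal and endothelial cells to at most 3.23 CPM. Enteroendocrine markers summed to at most 64.1 CPM and tuft markers to at most 13.4 CPM. Goblet markers summed to 521 to 666 CPM in Ctrl, 501 to 1352 CPM in stress, 444 to 639 CPM in vehicle and 411 to 755 CPM in CORT. The 6 enterocyte markers summed to 179 to 202 CPM in Ctrl, 137 to 190 CPM in vehicle and 125 to 191 CPM in CORT, but to 830, 322 and 1685 CPM in stress 1+2, 3 and 4+5+6.

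As levels, the members ran from the acetyl-CoA synthetase Acss2 at the top to the desaturase Scd1 at the bottom. Acss2, which makes acetyl-CoA from acetate in the cytosol, had the highest mean FPKM of the set (38.1 over 12 libraries), ahead of Acly, which makes it from citrate (33.3), Fdps, which makes farnesyl diphosphate (30.01), Srebf2 (27.8) and the sterol isomerase Ebp (25.4). In single libraries the Acss2 FPKM was 34.6, 36.3 and 38.4 in Ctrl, 44.5, 37.3 and 41.4 in stress, 44.3, 38.4 and 39.3 in vehicle and 38.2, 30.6 and 34.3 in CORT. In FPKM the ranges of all groups overlapped except those of vehicle and CORT, which were apart by a small margin. In CPM, the measure used between libraries, vehicle (122 to 143) overlapped CORT (106 to 123). Stress (125 to 143 CPM) lay above Ctrl (114 to 120 CPM).

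Scap (22.9 FPKM), the sterol carrier Stard4 (21.9), Srebf1 (21.4) and Hmgcs1 (20.4), which condenses acetyl units to HMG-CoA, followed. Idi1 (17.8), Fasn (16.6), Pmvk (15.1), Tm7sf2 (15.1), Fdft1 (12.9), Insig1 (12.3), Dhcr7 (11.9) and Sqle (10.1) lay between 10 and 20 FPKM on average. The means of neighbouring genes in this order were mostly closer than their SDs between libraries, as the plot of levels shows.

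Below 10 FPKM were Sc5d (9.64), Mvd (9.15), Nsdhl (9.07), Cyp51 (8.60), Insig2 (8.22), Mvk (7.64), Scd2 (7.46), Msmo1 (7.39), Elovl6 (6.52), Acaca (5.98), Lss (3.78) and Hsd17b7 (3.41). Acacb, the mitochondrial-surface form of acetyl-CoA carboxylase, averaged 1.83 FPKM, against 5.98 for its cytosolic counterpart Acaca. Scd1, the main hepatic stearoyl-CoA desaturase, was at 0 in 7 of 12 libraries, and its values in the others ran from 0.0258 to 0.272 FPKM (9 to 24 counts). Scd1 was the only member that failed the filter on low counts, so 30 of 31 members were tested in each comparison.

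**Figure D1:**
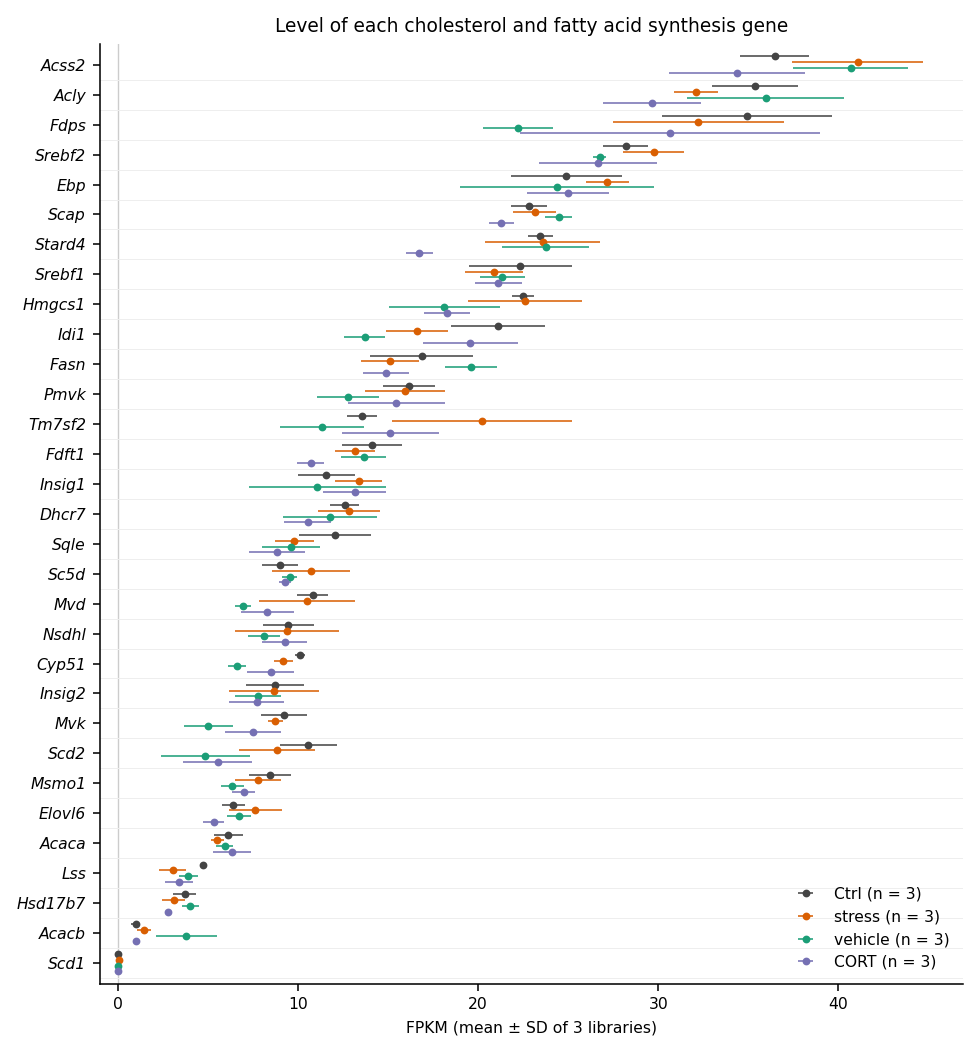
Mean FPKM of each of the 31 genes in the 4 groups, with bars for the SD of 3 libraries, ordered by the mean over all libraries. Acss2 is highest (38.1) and Scd1 lowest (0.0466), and the vehicle means of Fdps, Mvk, Mvd and Idi1 lie left of their Ctrl means while that of Acacb lies right.

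Restraint stress was compared with Ctrl to ask how the stem cells respond within a day. No member of the set passed the threshold in either direction. By edgeR's quasi-likelihood test with Benjamini-Hochberg adjustment over 13722 genes, 0 of 30 members were called at adjusted p below 0.05, where 1.3% of all genes tested were higher and 0.59% lower, and 0.751% were also past 2-fold. At an unadjusted p below 0.05 there were 3 members of 30, against 15.2% of all genes tested. DESeq2 called 1 member (Lss, lower), against 4.49% of all genes in either direction, and limma on log2(FPKM + 1) called 0, against 0.649%. The median log2 fold change of the 30 members was -0.03, with 12 positive and 18 negative, against -0.0028 for all genes, and it was 0.015 without Ctrl 2 and 0.0019 without stress 4+5+6.

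Few members had groups that did not overlap. Lss, lanosterol synthase, which folds squalene epoxide into the first sterol, read 27.7, 27.3 and 25.7 CPM in Ctrl and 22.1, 16.3 and 15.3 CPM in stress, a log2 difference of -0.59 (SE 0.16, adjusted p = 0.12). Tm7sf2, a sterol C14 reductase, read 19.2, 20.5 and 21.2 CPM in Ctrl and 36.4, 30.99 and 22.2 CPM in stress (log2 difference 0.56, SE 0.18, adjusted p = 0.17). For both genes and for Acss2 (log2 difference 0.19, adjusted p = 0.34) the groups did not overlap, which makes 3 of 30 members against 20.4% of all genes tested.

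Within the roles, the 7 mevalonate genes had log2 differences of -0.33 to 0.01 under stress and the 10 genes from squalene to cholesterol -0.59 to 0.56. The 6 sensing and transport genes ran from -0.03 to 0.21, with Srebf1 at -0.03 and Srebf2 at 0.09, and the 7 tested fatty acid genes from -0.24 to 0.30. The lowest value among the mevalonate genes was that of Idi1, isopentenyl-diphosphate isomerase (log2 difference -0.33, SE 0.13, adjusted p = 0.25).

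The enterocyte markers moved with this contrast: all 6 were higher on average in stress, 5 passed the test, and their median log2 fold change was 3.20. Of the 6 ISC markers only 1 passed: Ascl2 fell by 1.23 (adjusted p = 3.4e-04). Among all 6, 2 were positive and the median log2 fold change was -0.07. The part of these markers in the values of the set was not tested. In bulk libraries such as these, fewer cells of a type and less RNA per cell cannot be told apart. Leaving out any of the 6 libraries also gave 0 called members. In simulated data of this comparison 32.8% of genes changed 1.5-fold and 70.8% of genes changed 2-fold were recovered. The changed genes were drawn from all genes that passed the filter, and most simulated 1.5-fold changes among them were missed. Recovery for the members alone was not tested.

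Corticosterone was compared with vehicle to ask what the hormone alone does. Idi1 rose, while Acacb, Stard4 and Fasn fell. Of 30 members 1 was called higher, where 3.64% of all 14656 genes tested were, and 3 were called lower, where 4.5% were. Acacb was the member past 2-fold, against 1.87% of all genes, and 10 of 30 members did not overlap between the groups (4 higher and 6 lower in CORT), against 28.7% of all genes.

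Idi1 makes dimethylallyl diphosphate, the primer of isoprenoid chains. It read 50.1, 41.0 and 44.4 CPM in vehicle 3, 5 and 6 and 75.7, 66.6 and 60.9 CPM in CORT 2, 4 and 5. All CORT values lay above all vehicle values, and the gene rose 1.497-fold (log2 0.58, SE 0.11, adjusted p = 0.011).

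The differences of Fdps, Cyp51 and Mvk were positive too and did not pass the threshold. Fdps read 31.7, 27.1 and 32.2 CPM in vehicle and 55.8, 37.5 and 40.2 CPM in CORT (log2 difference 0.55, SE 0.15, adjusted p = 0.062). Cyp51, the lanosterol demethylase, read 30.6, 25.5 and 28.1 CPM in vehicle and 43.9, 35.8 and 35.5 CPM in CORT (0.45, SE 0.12, adjusted p = 0.053). For both genes the CORT libraries were all above the vehicle libraries, as they were for mevalonate kinase, Mvk (log2 difference 0.61, SE 0.22, adjusted p = 0.13).

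Of the 7 mevalonate genes 6 had positive log2 differences, and their median was 0.34 against 0.01 for all genes tested. The exception was Fdft1, squalene synthase, the step at which farnesyl diphosphate is committed to sterols (log2 difference -0.28, SE 0.10, adjusted p = 0.14), whose CORT values of 33.7 to 38.0 CPM lay under the vehicle values of 38.7 to 47.3 CPM. The remaining mevalonate genes Hmgcs1, Pmvk and Mvd (diphosphomevalonate decarboxylase) had log2 differences of 0.09, 0.34 and 0.32.

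From squalene to cholesterol, 7 of 10 genes were positive with a median of 0.08, from -0.45 for Hsd17b7 (a sterol 3-keto reductase, adjusted p = 0.10) to 0.47 for Tm7sf2 (adjusted p = 0.19). Sqle, squalene epoxidase, was at -0.04 and Lss at -0.14. Nsdhl and Msmo1, which remove the methyl groups at C4, were at 0.26 and 0.20, and Ebp, Dhcr7 and Sc5d, which act in the last steps, between 0.03 and 0.10.

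Among the sterol sensors and carriers, Stard4, which ferries cholesterol between membranes, was called. It read 146, 127 and 117 CPM in vehicle and 96.9, 92.7 and 97.0 CPM in CORT. Every CORT value lay below every vehicle value and below the lowest Ctrl or stress value (115 CPM), and Stard4 fell by 0.45 on the log2 scale (SE 0.09, adjusted p = 0.017). The transcription factor genes themselves were at log2 differences of 0.02 (Srebf1, SE 0.08, adjusted p = 0.89) and 0.07 (Srebf2, SE 0.08, adjusted p = 0.69). Insig1 was at 0.29 (SE 0.21, adjusted p = 0.45), Insig2 at 0.04 and Scap at -0.14.

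In fatty acid synthesis, Acacb read 18.4, 47.1 and 37.6 CPM in vehicle and 8.77, 11.1 and 9.08 CPM in CORT. Vehicle 3 was the lowest of its group and still above every other library, and Acacb fell by 1.83 on the log2 scale (SE 0.29, adjusted p = 0.0061). Fasn, fatty acid synthase, read 206, 229 and 206 CPM in vehicle and 181, 162 and 158 CPM in CORT, without overlap, and fell by 0.36 (SE 0.08, adjusted p = 0.028). The other tested genes of the branch had log2 differences of -0.22 (Acly and Elovl6), -0.19 (Acss2), 0.14 (Acaca) and 0.26 (Scd2, SE 0.33), none past the threshold.

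Of the 6 ISC markers 5 were negative in this contrast and 3 fell: Ascl2 by 0.998 (adjusted p = 0.011), Lgr5 by 0.43 (adjusted p = 0.028) and Smoc2 by 0.31 (adjusted p = 0.047). Lgr5 read 194 to 210 CPM in vehicle and 128 to 159 CPM in CORT, and the part of these markers in the values of the set was not tested. The calls of Idi1 and Acacb in CORT against vehicle held in all 14 alternatives tried, including those without each library. Stard4 lost its call without CORT 4 (adjusted p = 0.079) or CORT 5 (0.056), and Fasn without vehicle 5 (0.091), vehicle 6 (0.052), CORT 4 (0.12) or CORT 5 (0.12), while Fdps and Cyp51 passed in 4 and 5 of the 14.

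**Figure D2:**
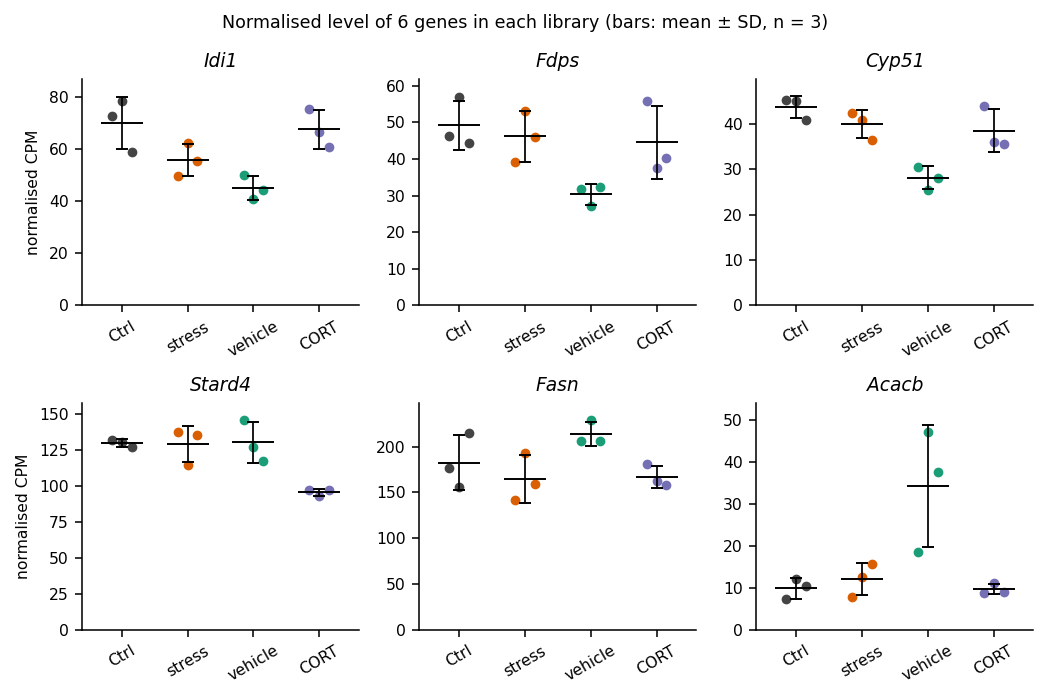
Normalised CPM of the 6 genes called in any comparison, each dot 1 library, with bars for the mean ± SD (n = 3). Vehicle is the low group for Idi1, Fdps and Cyp51 and the high group for Acacb, CORT is the low group for Stard4, and Fasn in vehicle (206 to 229 CPM) overlaps Ctrl (156 to 215 CPM).

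The 2 control groups were compared because they are the reference of the 2 treatments, and 4 members differed between them. Idi1, Fdps and Cyp51 were lower and Acacb was higher in vehicle than in Ctrl. Of 30 members 3 were called lower, where 0.352% of the 13642 genes tested were, and 1 was called higher, where 0.447% were. Acacb was past 2-fold, against 0.359% of all genes. The libraries did not overlap for 14 of 30 members (11 lower and 3 higher in vehicle), against 16.3% of all genes tested, and the median log2 difference of the members was -0.14, with 21 of 30 negative, against 0.0019 for all genes.

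All 7 mevalonate genes had negative log2 differences in vehicle against Ctrl, with a median of -0.63. Idi1 read 72.9, 78.5 and 59.0 CPM in Ctrl against the vehicle values of 41.0 to 50.1 CPM, and fell by 0.63 on the log2 scale (SE 0.12, adjusted p = 0.043). Fdps read 46.3, 56.9 and 44.5 CPM in Ctrl against 27.1 to 32.2 CPM in vehicle, and fell by 0.69 (SE 0.13, adjusted p = 0.034). For both genes no vehicle library reached the lowest Ctrl library, while the CORT libraries (60.9 to 75.7 CPM for Idi1, 37.5 to 55.8 CPM for Fdps) overlapped Ctrl.

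Mvk (log2 difference -0.82, SE 0.21, adjusted p = 0.14), Mvd (-0.65, SE 0.15, adjusted p = 0.091) and Hmgcs1 (-0.33, SE 0.12, adjusted p = 0.30) also did not overlap but did not pass the threshold. Mvk read 15.2, 17.5 and 14.9 CPM in Ctrl, 11.7, 6.87 and 8.36 CPM in vehicle and 16.2, 12.4 and 12.5 CPM in CORT. Pmvk was at -0.35 and Fdft1 at -0.06.

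Downstream of squalene, Cyp51 read 45.1, 44.9 and 40.9 CPM in Ctrl, 42.3, 40.8 and 36.5 CPM in stress, and 25.5 to 30.6 CPM in vehicle. It fell by 0.63 in vehicle against Ctrl (SE 0.12, adjusted p = 0.034), and all vehicle libraries lay below every library of the other groups. The other 9 genes of this stretch did not pass, with log2 differences from -0.40 (Msmo1) to 0.12 (Hsd17b7). Among the 6 sensors and carriers the lowest adjusted p was 0.67, with Stard4 at 0.01 (SE 0.09), Srebf1 at -0.01 and Srebf2 at -0.09.

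Acacb read 7.19, 12.0 and 10.3 CPM in Ctrl and 7.90, 12.7 and 15.7 CPM in stress. The vehicle values of 18.4 to 47.1 CPM were above all of these, and Acacb rose 3.51-fold over Ctrl (log2 1.81, SE 0.30, adjusted p = 0.021). Scd2 was the stearoyl-CoA desaturase of the set that passed the filter on low counts. It read 75.8, 60.7 and 56.3 CPM in Ctrl and 46.1, 18.4 and 23.2 CPM in vehicle (log2 difference -1.14, SE 0.27, adjusted p = 0.10). The Scd2 values in CORT of 46.6, 33.2 and 24.9 CPM also lay below Ctrl. Fasn read 176, 156 and 215 CPM in Ctrl, which overlapped vehicle (log2 difference 0.23, SE 0.11, adjusted p = 0.49).

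Most calls in vehicle against Ctrl were lost when 1 library other than vehicle 3 was left out. Idi1 lost its call without Ctrl 1, Ctrl 2, vehicle 5 or vehicle 6 (adjusted p 0.11 to 0.24), Fdps and Cyp51 without any library but vehicle 3 (0.069 to 0.14 and 0.080 to 0.21), and Acacb without Ctrl 1, 2 or 3 or vehicle 6 (0.060 to 0.15). Without vehicle 3, whose sum over the mevalonate genes stood nearest to Ctrl, 6 members were called lower in place of 3: Hmgcs1, Mvk and Scd2 were added. Vehicle 3 and 5 had the depth of the Ctrl libraries. The Paneth markers summed to 170 to 199 CPM in vehicle, 117 to 148 CPM in Ctrl, 150 to 233 CPM in stress and 94.0 to 108 CPM in CORT. Mmp7 was at 79.2 CPM or more in vehicle and 16.5 to 42.1 CPM elsewhere. Lyz1 read 31.1 to 39.9 CPM in vehicle and 34.3 to 46.4 CPM in Ctrl. Defa24 read 34.9 to 38.1 and 37.6 to 52.6 CPM, and Defa17 16.8 to 19.5 and 18.1 to 22.5 CPM. Ang4 and Mptx2 lay at 3.51 CPM or less in both groups, with overlapping ranges. The part of the Paneth markers in the values of Acacb was not tested.

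**Figure D3:**
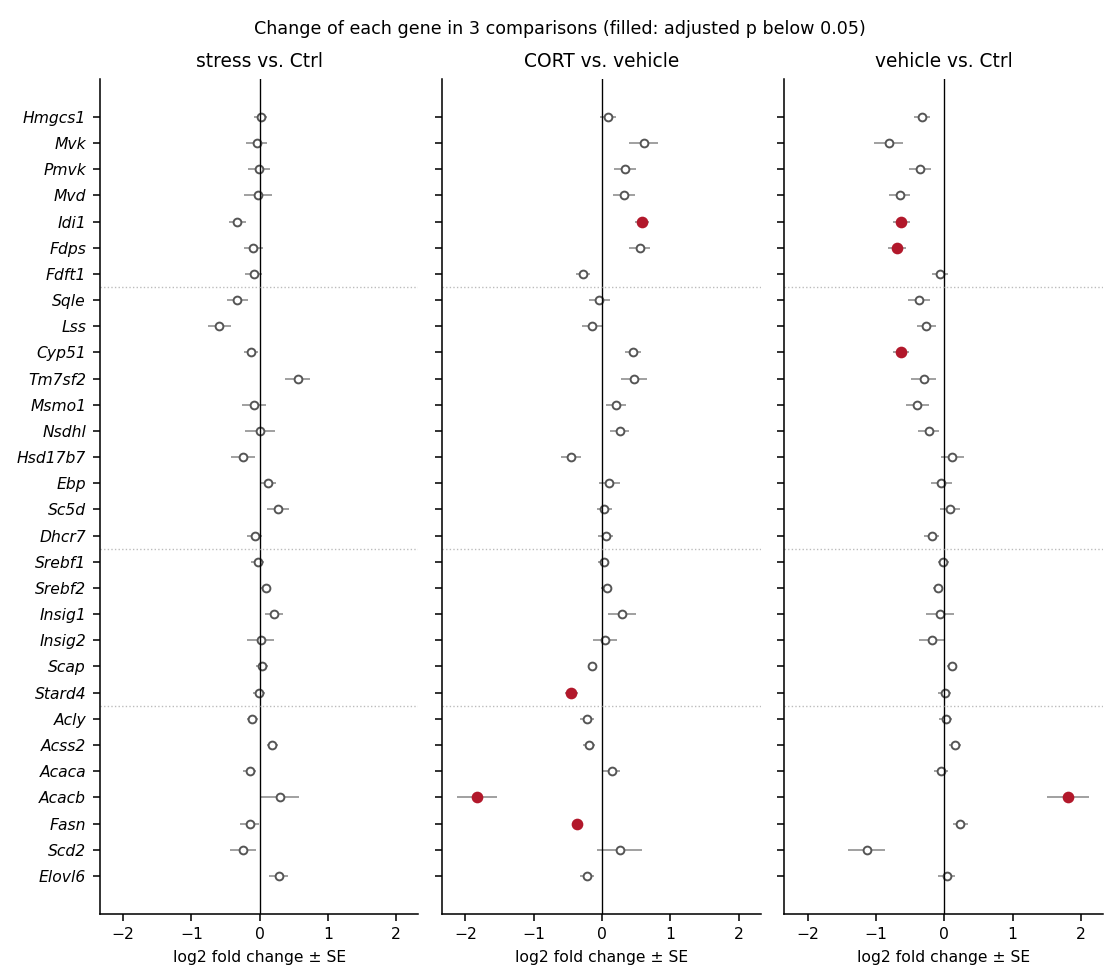
Log2 fold change (x axis, bars ± SE) of the 30 tested genes in stress against Ctrl, CORT against vehicle and vehicle against Ctrl, with filled points for adjusted p below 0.05 and dotted lines between roles. No gene is filled for stress, Idi1 is filled right and Stard4, Acacb and Fasn left for CORT, and Idi1, Fdps and Cyp51 are filled left and Acacb right for vehicle; the last 2 panels share the vehicle libraries.

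Since vehicle is the reference of CORT and the numerator of the control comparison, a vehicle library enters both with opposite sign, and the values are set side by side without a test of likeness. For Idi1 the log2 differences were 0.58 in CORT against vehicle and -0.63 in vehicle against Ctrl, for Fdps 0.55 and -0.69, for Cyp51 0.45 and -0.63 and for Acacb -1.83 and 1.81. Stard4, at -0.45 and 0.01, was the called gene whose CORT libraries stood apart from all 9 other libraries. Scd2, at 0.26 and -1.14, lay below every Ctrl library in all 6 libraries of injected mice. In stress 1+2, 3 and 4+5+6 Scd2 read 60.7, 64.3 and 37.9 CPM, the last also below every Ctrl library.

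By library, the summed CPM of the 7 mevalonate genes was 297, 333 and 282 in Ctrl, 272, 303 and 275 in stress, 247, 198 and 221 in vehicle and 291, 247 and 266 in CORT. Vehicle was the lowest group, with vehicle 3 and CORT 4 nearly equal. The sum of the 10 genes from squalene to cholesterol ran from 228 to 271 CPM in vehicle and from 257 to 311 CPM elsewhere. The 6 sensors and carriers summed to 489 to 576 CPM over all 12 libraries, and the 8 fatty acid genes to 646 to 711 CPM in vehicle and 544 to 676 CPM elsewhere.

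Whether the 2 treatments acted differently on a gene was tested as the stress effect minus the CORT effect, in 1 fit over the 12 libraries. Idi1 was the 1 member of 30 called, where 0.388% of 14415 genes were: it was at -0.33 under stress and rose by 0.58 under CORT, a difference of -0.91 on the log2 scale (SE 0.18, adjusted p = 0.045). The 3 stress values of 49.9, 62.5 and 55.4 CPM were lower on average than Ctrl, and the 3 CORT values higher than vehicle. Acacb (difference 2.13, SE 0.45, adjusted p = 0.062) and Cyp51 (-0.58, SE 0.16, adjusted p = 0.12) came next. In simulated data of this contrast 18.5% of genes changed 1.5-fold and 43.1% of genes changed 2-fold were recovered. The call of Idi1 was lost without Ctrl 1 or 2, stress 1+2 or 4+5+6, vehicle 5 or 6, or any CORT library (adjusted p 0.059 to 0.12), and the vehicle libraries in the contrast are those that stood below Ctrl.

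Genes that neighbour the pathway were examined as 3 further lists. Among 16 genes of sterol export, storage and uptake, Npc1, which releases cholesterol from lysosomes, rose under both treatments. It read 31.1, 34.3 and 26.4 CPM in Ctrl and 49.5, 49.1 and 57.3 CPM in stress (log2 0.77, SE 0.13, adjusted p = 0.018). In vehicle it read 24.1, 25.1 and 22.4 CPM and in CORT 45.3, 52.1 and 54.3 CPM (log2 1.08, SE 0.10, adjusted p = 5.8e-04). All stress and CORT values lay above all Ctrl and vehicle values.

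Abcg8, one part of the sterol exporter that returns sterols to the gut lumen, fell by 0.51 in vehicle against Ctrl (adjusted p = 0.044) and rose by 0.78 in CORT against vehicle (adjusted p = 0.0015). It read 37.2 to 41.5 CPM in vehicle, 52.0 to 57.5 CPM in Ctrl and 60.1 to 71.1 CPM in CORT. Abcg5, the other exporter part on this list, did not pass in either contrast. Its log2 differences were -0.24 in vehicle against Ctrl (adjusted p = 0.63) and -0.02 in CORT against vehicle (adjusted p = 0.96). Npc1l1, the sterol uptake transporter of enterocytes, fell by 1.07 in vehicle against Ctrl (adjusted p = 0.015), and Cyp27a1, the sterol 27-hydroxylase, rose by 1.35 (adjusted p = 0.010). In the same contrast 5 of the 6 enterocyte markers were negative, with a median log2 difference of -0.52, and the 1 that passed, Fabp1, was higher in vehicle (log2 1.91, adjusted p = 0.018). Their part in these values was not tested. In stress Npc1l1 read 64.7, 24.0 and 94.3 CPM, and stress 3, the lowest, was also the stress library with the lowest enterocyte sum.

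Among 12 genes of SREBP processing and degradation, Rnf145, a sterol-responsive ubiquitin ligase, fell by 0.62 under CORT (adjusted p = 0.016), from 71.1 to 99.9 CPM in vehicle to 51.8 to 55.4 CPM. It was at -0.39 under stress (adjusted p = 0.056), and the lowest adjusted p of this list in vehicle against Ctrl was 0.62.

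Among 26 genes of citrate and NADPH supply and other lipid synthesis, 25 were tested. Under CORT 4 rose, against 3.64% of all genes tested, and 3 fell, against 4.5%. Those that rose were Acsl3, which activates long-chain fatty acids (log2 0.68, adjusted p = 0.0030), Lpin1, a phosphatidate phosphatase (1.09, adjusted p = 0.020), Gpam, which starts glycerolipid synthesis (0.67, adjusted p = 0.025), and Acat2, which joins 2 acetyl-CoA at the head of the mevalonate pathway (0.33, adjusted p = 0.042). Those that fell were the elongase Elovl1 (-0.68, adjusted p = 0.0030), Aacs, which activates acetoacetate (-0.55, adjusted p = 0.015), and Mid1ip1, an activator of acetyl-CoA carboxylase (-0.53, adjusted p = 0.015). Mid1ip1 also fell under stress, by 0.67 (SE 0.13, adjusted p = 0.028), from 49.9, 54.5 and 43.8 CPM in Ctrl to 33.2, 27.2 and 32.7 CPM. In vehicle against Ctrl the lowest adjusted p of the list was 0.10.

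On mm10, Idi1 lies at chr13:8885501-8892451 (plus strand), Fdps at chr3:89093588-89101959 (minus), Cyp51 at chr5:4081145-4104746 (minus), Acacb at chr5:114146535-114250761 (plus) and Fasn at chr11:120805846-120824547 (minus). Some counts may include reads of a neighbour, since strand was not stated for the counting. In the gene models, 26.7% of the exonic bases of Fdps lie under Gm43738 or Gm22935 on the same strand, 12.1% of Tm7sf2 under Vps51, and on the opposite strand 18.3% of Fdft1 lie under Ctsb, 13.2% of Scap under 5830462I19Rik and 12.1% of Hmgcs1 under Gm48342. For Idi1 the share is 9.2% (Gm48574), for Acss2 9.1% (Ggt7, Acss2os or Gss) and for Cyp51 3.8% (Akap9). No exonic base of Acacb, Fasn or Stard4 is shared.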

How the data were processed

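RNA of sorted Lgr5-EGFPhi ISCs was sequenced by the authors as paired reads of 150 bp and mapped to mm10. The submitters' processing notes name HISAT2 2.2.1 and StringTie 2.2.1, whereas the methods name another counter. Values of the deposited count table are estimated counts, in which 75 aligned bases make 1 count, so 1 read pair gives up to 4. The deposited FPKM and coverage signal per gene come from the same runs, and coverage served only to find that unit. The counts were deposited as whole numbers. Genes were filtered with filterByExpr, normalised by TMM and tested in edgeR 4.0.16 (quasi-likelihood F-test, R 4.3.3) on the libraries of the groups compared, with Benjamini-Hochberg adjustment over all genes tested. A gene was called at adjusted p below 0.05. Every per-gene column mapped to a sample. DESeq2 1.42.0, limma 3.58.1 on log2(FPKM + 1) and log2(FPKM + 0.1), other factors and filters, 1 fit of all 12 libraries and leaving out each library were tried, and edgeR was tested on simulated data. Differences between libraries of 1 group exceeded counting noise in every pair (chi-square per gene 8.96 to 104), so none was counted as a duplicate. Per-library values were printed for members called in any comparison and for those with the highest and lowest mean FPKM, and for further members where a comparison names them, chosen after their values were seen. The 31 members and the further lists were chosen with earlier results of these data known.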

Additional observations from a re-analysis of the deposited data

Results flagged for a closer look

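The effect on Idi1 was called different between the 2 treatments in the main fit. The stress effect minus the CORT effect was -0.912 on the log2 scale in a test of that difference (edgeR, adjusted p = 0.045). The call held in 8 of 19 alternatives, of which 3 left out a library. It was lost with limma on log2(FPKM + 1) and log2(FPKM + 0.1) (adjusted p = 0.076 and 0.073). Idi1 was at -0.33 under stress against Ctrl (adjusted p = 0.25) and at 0.58 under CORT against vehicle (adjusted p = 0.011). The difference rests on 2 reference groups that themselves differed, with Idi1 at 59.0 to 78.5 CPM in Ctrl and 41.0 to 50.1 CPM in vehicle.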

How the results depend on the processing

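The alternatives were examined gene by gene for the members only, so calls in the further lists were not checked in this way. No called member changed direction under any alternative. Members that were not called did: 12 for stress, 8 for CORT, 9 for vehicle against Ctrl and 7 for the difference between treatments, with log2 differences of at most 0.09, 0.26, 0.083 and 0.13 in size. The median over the members turned from -0.03 to 0.015 for stress without Ctrl 2 and 0.0019 without stress 4+5+6, from 0.06 to -0.014 for CORT with limma on either FPKM scale and -0.0059 without CORT 2, and from -0.07 to 0.015 and 0.036 for the difference between treatments without stress 3 and vehicle 5. For stress, DESeq2 called 1 member lower in place of 0. For CORT against vehicle, members called higher numbered 3 with DESeq2, without the filter, with at least 10 counts in every library and in the fit of all 12 libraries, and 2 with upper-quartile factors, in place of 1. For vehicle against Ctrl, members called lower numbered 5 with DESeq2 and 0 without the filter or with limma on either FPKM scale, in place of 3, and members called higher 0 with limma on either scale, in place of 1. For the difference between treatments, 4 were called with DESeq2, 2 without the filter or with at least 10 counts, and 0 with limma on either scale, in place of 1. Leaving out 1 library gave 1 to 3 members higher and 1 to 3 lower for CORT, 0 to 1 higher and 0 to 6 lower for vehicle against Ctrl, and 0 to 3 for the difference between treatments. The cause of these shifts was not tested. A fit without 1 library differs both in the number of libraries and in which library is missing. Fasn under CORT had adjusted p of 0.055 and 0.053 with limma and 0.098 in the fit of all libraries. Over all alternatives 62 of the counts stayed within 1.5 times and 41 did not, while 81 single-gene values kept their call and 50 lost it. No paired analysis was possible because the compared groups share at most 1 library number.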
